A study of Mus musculus with 23 samples.

Results

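The primitive endoderm lineage genes described here are Gata4, Gata6, Sox17, Sox7, Pdgfra, Dab2, Lama1, Hnf4a, Afp and Sparc. These 10 genes were found by name among the 23369 gene names of the RNA-seq tables, and each had 1 row per sample. They were measured in 6 samples of mouse embryonic stem cells (ESCs), 3 with the label untreated and 3 with the label treated, the latter given 4-hydroxytamoxifen at 800 nM for 72 hr. The text of the series gives the dose in µM instead. All 6 samples are Kdm2b fl/fl: both alleles carry loxP sites around the exon for most of the ZF-CxxC domain, the part of KDM2B that binds nonmethylated CpG. They also carry a Cre recombinase fused to a modified estrogen receptor (ERT2Cre) at Rosa26, so that tamoxifen leads to removal of the exon. Untreated and tamoxifen samples therefore share the floxed allele and the Cre, and no sample without Cre was treated with tamoxifen. The cells were grown with serum and LIF on fibroblast feeders inactivated with Mitomycin C, and were plated without feeders overnight before treatment. The labels number the samples 1 to 3 in each group, and the study's methods call them biological triplicates. The labels decided the group of each sample. File names would place all 6 samples in the other group, which would turn the sign of every difference given here and leave its size as it is.

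The primitive endoderm forms in the inner cell mass of the blastocyst, beside the epiblast from which ESCs are derived. FGF signaling through ERK promotes it, GATA6 and then GATA4, SOX17 and SOX7 act in its transcriptional program, and its cells carry the PDGF receptor PDGFRA and the adaptor DAB2. Its derivatives, the parietal and visceral endoderm, secrete basement membrane (laminin, type IV collagen, SPARC) and serum proteins such as AFP. ESCs in serum are heterogeneous, and some cells in such cultures can express genes of this lineage.

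RefSeq promoter sequences were at hand for Pdgfra, Dab2, Hnf4a, Afp and Sparc, 5 of the 10 members with 7 entries among them. The 3 sequences below are shown because the domain that tamoxifen removes reads CpG, and they span the range of CpG density among these entries. Each is the 250 bases before the annotated start, 5′ to 3′, in GRCm38.p6, with every CG in capitals. Dab2 has 2 entries. The one printed, at chr15:6386498-6386747 on the plus strand, holds 17 CG, and among 32851 RefSeq promoters of this length 23.52% hold at least as many. The other, at chr15:6299539-6299788 on the plus strand, holds 2 (81.18% hold at least 2), and the files do not say from which start the Dab2 fragments came. That of Pdgfra, at chr5:75152001-75152250 on the plus strand, holds 4, as do those of Sparc and of 1 Hnf4a entry (62.23% of promoters hold at least 4). That of Afp, at chr5:90490464-90490713 on the plus strand, holds 1 (92.13% hold at least 1). The median over all promoters was 6. These counts describe letters in a window, and neither methylation nor KDM2B binding was measured in the tables analysed here.
Dab2: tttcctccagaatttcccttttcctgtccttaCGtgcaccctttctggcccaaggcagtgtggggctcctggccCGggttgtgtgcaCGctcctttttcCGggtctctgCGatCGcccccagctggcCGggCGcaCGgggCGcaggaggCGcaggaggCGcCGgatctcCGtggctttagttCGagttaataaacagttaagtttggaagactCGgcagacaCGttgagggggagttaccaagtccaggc
Pdgfra: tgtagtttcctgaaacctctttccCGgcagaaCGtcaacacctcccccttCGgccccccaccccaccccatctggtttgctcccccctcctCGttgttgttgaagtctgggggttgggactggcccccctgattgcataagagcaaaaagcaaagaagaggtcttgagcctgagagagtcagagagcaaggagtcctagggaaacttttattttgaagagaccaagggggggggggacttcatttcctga
Afp: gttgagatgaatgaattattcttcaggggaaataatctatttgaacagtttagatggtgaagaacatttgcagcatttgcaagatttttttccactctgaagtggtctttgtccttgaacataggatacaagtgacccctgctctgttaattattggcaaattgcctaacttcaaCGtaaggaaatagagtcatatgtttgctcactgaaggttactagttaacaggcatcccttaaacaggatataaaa

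Values are FPKM, fragments assigned to a gene, scaled by its length in kilobases and by the number of fragments mapped in the sample. Fold changes are differences of log2(FPKM + 0.1), tamoxifen minus untreated, and understate the change of low genes. Of 23363 genes with a completed estimate in every sample, 12997 reached 0.5 FPKM in at least 3 of the 6 samples and were tested with limma, with Benjamini-Hochberg adjustment over all of them and a threshold of 0.05. Depth, read from the steps that single fragments leave in low FPKM, lay between 0.654 and 0.954 of that of untreated replicate 1 in the other 5 samples. The number of genes at 1 FPKM or more ranged from 11521 to 11920, and the sum of FPKM from 549379 to 1045707. Samples with the same number deviated together from their group means, so a second fit held the replicate number as a block. Without the block 3 genes were called higher and 1 lower (0.0231% and 0.00769% of those tested), and 623 genes had an unadjusted p under 0.05. With the block 563 were called higher (4.33%) and 787 lower (6.06%), a split that turned to 430 higher and 336 lower when FPKM were scaled to the same sum in each sample (TPM). Kdm2b itself was at 27.0, 21.5 and 27.7 FPKM in untreated replicates 1, 2 and 3 and at 19.9, 21.9 and 25.0 FPKM in tamoxifen replicates 1, 2 and 3 (log2 fold change -0.19, adjusted p = 0.306 with the block). The groups overlapped, and a value for the whole gene does not resolve the loss of 1 exon.

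At the level of the label, the samples expressed the genes of pluripotent cells. All 12 genes of a naive pluripotency list passed the filter, and Pou5f1, the gene of the core factor OCT4, lay between 369 and 832 FPKM. Against this, the members covered a wide range of FPKM, a scale that corrects for length and so allows levels to be compared between genes. Sparc had the highest mean over the 6 samples, 324 ± 74.8 FPKM (SD, n = 6), above 99.3% of genes. Then came Lama1 with 4.18 ± 1.58, Dab2 with 3.13 ± 0.953, Pdgfra with 2.14 ± 1.24, Gata4 with 1.46 ± 0.630 and Gata6 with 0.727 ± 0.575 FPKM. The last 4 were Sox7 with 0.285 ± 0.109, Sox17 with 0.184 ± 0.101, Hnf4a with 0.0338 ± 0.0284 and Afp with 0.00799 ± 0.0124 FPKM. Only the steps from Sparc to Lama1 and from Sox17 to Hnf4a held in all 6 samples. Neighbors in between changed places from sample to sample: Lama1 lay above Dab2, Dab2 above Pdgfra, Pdgfra above Gata4, Gata6 above Sox7 and Sox7 above Sox17 in 4 of 6 samples each. Gata4 lay above Gata6, and Hnf4a above Afp, in 5 of 6.

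**Figure D1:**
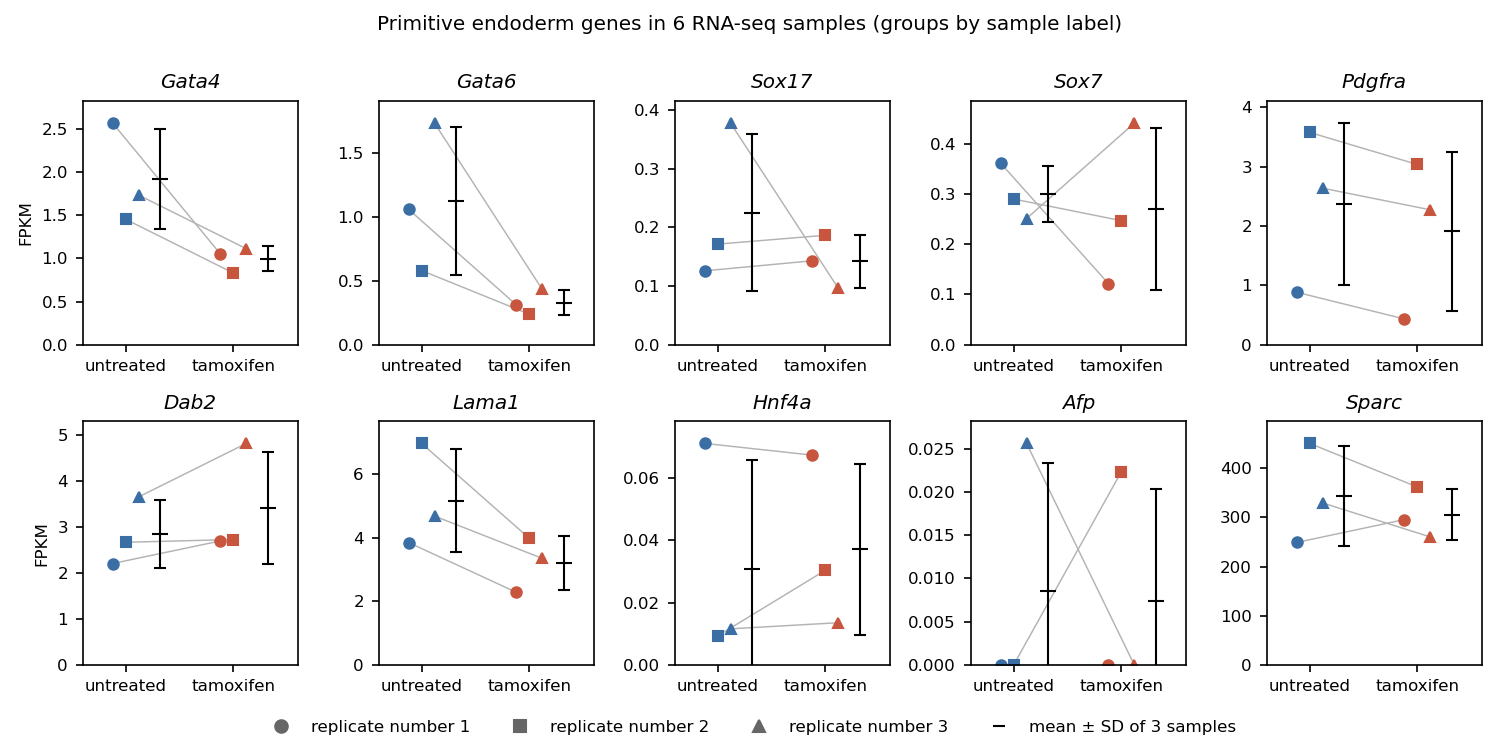
FPKM of the 10 members in each sample, with a scale of its own for each gene. Blue points are untreated and red points tamoxifen samples, shapes mark the replicate number, gray lines join samples of the same number, and black bars give the mean ± SD of 3 samples. For Gata4 and Gata6 all red points lie below all blue points, and for the other 8 members the groups overlap.

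Gata6 and Gata4, the zinc-finger transcription factors of the lineage, were lower in the tamoxifen samples. Gata6 was at 1.06, 0.581 and 1.74 FPKM in untreated replicates 1, 2 and 3 and at 0.311, 0.239 and 0.433 FPKM in tamoxifen replicates 1, 2 and 3. Every tamoxifen sample lay below every untreated one, and the mean was 3.44-fold higher in untreated samples (1.13 ± 0.581 against 0.328 ± 0.0981 FPKM, SD, n = 3 each). Gata4 was at 2.57, 1.45 and 1.73 FPKM in untreated samples and at 1.05, 0.830 and 1.11 FPKM in tamoxifen samples, in the same order. These groups did not overlap either, and the mean was 1.92-fold higher in untreated samples (1.92 ± 0.579 against 0.998 ± 0.148 FPKM). Over all genes tested, 5.40% had all 3 tamoxifen samples below all 3 untreated ones. The exact two-sided permutation test over samples gave p = 0.1 for each gene, the smallest value that 3 samples against 3 allow.

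Neither gene passed the threshold in the fit without the block. The log2 fold change of Gata6 was -1.43 (SE 0.442, limma adjusted p = 0.664) and that of Gata4 was -0.85 (SE 0.318, adjusted p = 0.849). With the block the same differences had SEs of 0.258 and 0.195, and both passed, with adjusted p = 0.0174 for Gata6 and 0.0359 for Gata4. Within replicate numbers 1, 2 and 3 the log2 difference of Gata6 was -1.50, -1.01 and -1.79. For Gata4 it was -1.21, -0.74 and -0.60, so both genes were lower in the tamoxifen sample of each number. Gata6 reached 0.5 FPKM in the untreated samples and in no tamoxifen sample, so it entered the test through the group in which it is higher. With no filter on low values it had adjusted p = 0.197 with the block, and 0 genes of the table were called, with 3857 at an unadjusted p under 0.05. With the samples numbered 2 left out of the fit with the block, the log2 fold changes were -1.64 for Gata6 and -0.91 for Gata4. Adjusted p was then 0.0924 and 0.181, in a fit of 4 samples in which 36 genes were called higher and 43 lower. Without the samples numbered 1 Gata6 had -1.40 (adjusted p = 0.0178). Without those numbered 3 Gata6 had -1.25 (adjusted p = 0.0457) and Gata4 had -0.98 (adjusted p = 0.0481). Under scaling to TPM Gata6 had adjusted p = 0.00577 with the block. Gata4 lost its call with the block under scaling to TPM (log2 fold change -0.77, adjusted p = 0.141), under quantile normalization (-0.73, 0.0531) and without the samples numbered 1 (-0.67, 0.0669).

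The tables place Gata6 at chr18:11052508-11085633 and Gata4 at chr14:63817752-63864097 in mm9, and no member overlaps the locus of another gene in these tables. Strands in mm9, here and below, come from a GENCODE annotation, with plus for Gata6 and minus for Gata4. Gata6 was read from few fragments. The steps in its FPKM correspond to 86, 45 and 108 fragments in untreated replicates 1, 2 and 3 and to 20, 17 and 23 fragments in tamoxifen replicates 1, 2 and 3. The intervals that the authors deposited with each FPKM, which cover the estimate in a single sample, overlapped between the nearest samples of both groups: 0.411 to 0.750 FPKM in untreated replicate 2 and 0.263 to 0.596 FPKM in tamoxifen replicate 3. For Gata4 the nearest were untreated replicate 2, with 1.16 to 1.74 FPKM, and tamoxifen replicate 3, with 0.826 to 1.39 FPKM, which overlapped as well. In RNA from whole cultures, fewer cells that express a gene and less RNA per cell cannot be told apart.

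Sox17, Sox7 and Hnf4a, transcription factors of the endoderm lineages, were below the filter and were not tested with limma. Sox17 was at 0.126, 0.172 and 0.378 FPKM in untreated replicates 1, 2 and 3 (10, 13 and 23 fragments) and at 0.143, 0.187 and 0.0962 FPKM in tamoxifen replicates 1, 2 and 3 (9, 13 and 5 fragments). The groups overlapped, and the log2 difference within numbers was 0.11, 0.08 and -1.28, so the samples numbered 3 alone set the sign of its mean. Sox7, a relative of Sox17, was at 0.361, 0.290 and 0.251 FPKM in untreated samples (30, 23 and 16 fragments) and at 0.122, 0.247 and 0.441 FPKM in tamoxifen samples (8, 18 and 24 fragments). Its highest and its lowest value both belonged to tamoxifen samples. Hnf4a, a nuclear receptor of the visceral endoderm, lay between 0.00930 and 0.0710 FPKM and had 8, 1 and 1 fragments in untreated samples and 6, 3 and 1 in tamoxifen samples, 10 in each group. Exact permutation gave p = 0.5, 0.7 and 0.7 for Sox17, Sox7 and Hnf4a, in a design where it cannot fall below 0.1.

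Afp, the secreted alpha-fetoprotein of the visceral endoderm, had 1 fragment in untreated replicate 3 (0.0256 FPKM) and 1 in tamoxifen replicate 2 (0.0223 FPKM), and was listed at 0 in the other 4 samples. Ttr, another serum protein of the visceral endoderm, was listed at 0 in all 6. No fold change is given for either.

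Pdgfra (chr5:75548316-75594229 in mm9, plus strand), the receptor for PDGF on primitive endoderm cells and on many mesenchymal cells, differed between replicate numbers and was not called between groups. It was at 0.883, 3.58 and 2.64 FPKM in untreated replicates 1, 2 and 3 and at 0.433, 3.04 and 2.27 FPKM in tamoxifen replicates 1, 2 and 3. Both samples numbered 1 lay below the other 4, and the groups overlapped. The tamoxifen sample was the lower one of each number, by log2 differences of -0.88, -0.23 and -0.21. The log2 fold change was -0.44 (SE 0.716, limma adjusted p = 0.999), and with the block Pdgfra did not pass either (SE 0.194, adjusted p = 0.176). Between replicate numbers Pdgfra differed by limma's F-test in the fit with group and number (adjusted p = 0.00187), as did 62.8% of all genes tested.

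Genes of fibroblasts, the cell type of the feeders, were measured beside it. Of 16 genes in a feeder fibroblast list 15 passed the filter, and 9 of them differed between replicate numbers, beside 62.8% of all genes tested. With the block 0 were called higher and 1 lower (Twist1), beside 4.33% and 6.06% of all genes tested. Under scaling to TPM 2 were called lower (Lox and Twist1), beside 336 of all 12997 genes tested. Without the samples numbered 2 there were 0, beside 43 lower and 36 higher of all 12997 genes. Without the block 0 were called, and 1 had an unadjusted p under 0.05, beside 623 of all 12997 genes. The summed FPKM of the list was 139 to 318 in untreated and 196 to 233 in tamoxifen samples. Col1a1, a fibrillar collagen chain, was at 15.6, 40.3 and 31.2 FPKM in untreated replicates 1, 2 and 3 and at 19.3, 38.2 and 29.7 FPKM in tamoxifen replicates 1, 2 and 3. Lox, which cross-links collagen, was at 1.82, 9.61 and 9.45 FPKM in untreated samples and at 0.479, 7.37 and 6.97 FPKM in tamoxifen samples. Dcn, a small proteoglycan, was at 2.19, 7.74 and 6.59 FPKM in untreated samples and at 1.88, 7.33 and 8.44 FPKM in tamoxifen samples. Both samples numbered 1 lay below the other 4 for Col1a1, Lox and Dcn as for Pdgfra (Lox and Dcn were chosen after their values were seen). This held for 10 of the 16 genes of the list, among them Lum, which was not tested, and for 19.8% of all genes tested. The 6 for which it did not hold were Tagln, Acta2, Twist1, Twist2, Postn and Pdgfrb. Lum, a proteoglycan of fibroblasts, was at 0 to 0.202 FPKM and Postn at 0.139 to 0.654 FPKM. The part of fibroblast RNA in the values of Pdgfra and of the matrix genes was not tested.

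**Figure D2:**
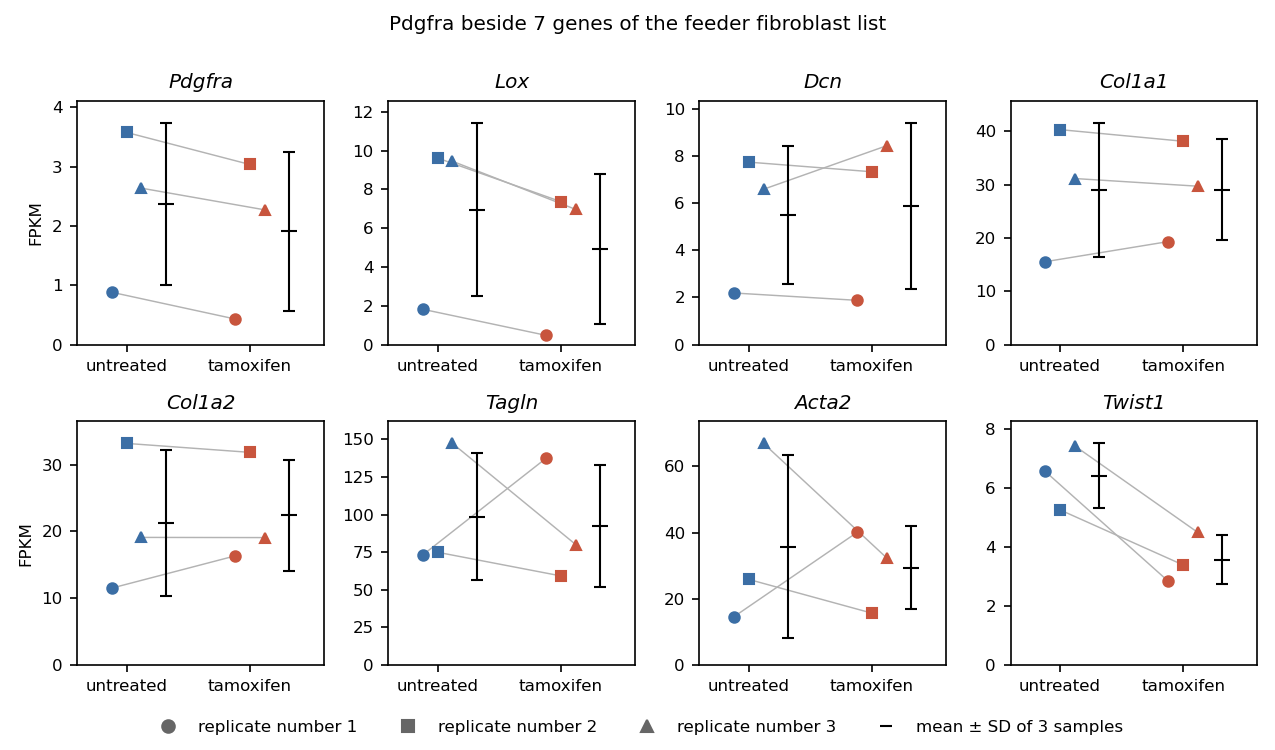
FPKM of Pdgfra and of 7 genes of the feeder fibroblast list in each sample, with a scale of its own for each gene. Colors, shapes, lines and bars are as in the plot of all members by sample. Both circles, the samples numbered 1, lie below the other 4 points for Pdgfra, Lox, Dcn, Col1a1 and Col1a2, and not for Tagln, Acta2 or Twist1.

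Dab2, an endocytic adaptor of the extraembryonic endoderm, did not share the direction of Gata6 and Gata4 and was not called. It was at 2.21, 2.67 and 3.65 FPKM in untreated replicates 1, 2 and 3 and at 2.70, 2.73 and 4.82 FPKM in tamoxifen replicates 1, 2 and 3. The tamoxifen sample was the higher one of each number, by log2 differences of 0.28, 0.03 and 0.39, and the groups overlapped. The log2 fold change of 0.23 did not pass the threshold without the block (SE 0.324, limma adjusted p = 0.999) or with it (SE 0.143, adjusted p = 0.305). Replicate numbers differed (adjusted p of the F-test = 0.0148), with the samples numbered 3 highest in both groups.

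Lama1 (chr17:68046605-68171985 in mm9, plus strand) encodes the alpha-1 chain of the laminin that primitive endoderm derivatives lay down. It was at 3.85, 6.97 and 4.68 FPKM in untreated replicates 1, 2 and 3 and at 2.28, 3.98 and 3.35 FPKM in tamoxifen replicates 1, 2 and 3. Samples numbered 2 were the highest of their groups, and the groups overlapped by a single pair, tamoxifen replicate 2 above untreated replicate 1. The mean was 1.61-fold higher in untreated samples (5.16 ± 1.61 against 3.20 ± 0.859 FPKM, SD, n = 3 each). The log2 fold change of -0.66 missed the threshold without the block (SE 0.317, limma adjusted p = 0.999) and passed it with the block (SE 0.132, adjusted p = 0.0237). Within numbers 1, 2 and 3 the log2 difference was -0.73, -0.79 and -0.47. Lama1 passed with the block also among genes of at least 1 FPKM in all 6 samples (adjusted p = 0.0032). Its call was lost under scaling to TPM (log2 fold change -0.57, adjusted p = 0.211), without a filter (-0.66, 0.186) and without the samples numbered 2 (-0.60, 0.197). Replicate numbers differed as well (adjusted p of the F-test = 0.0112).

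Sparc, a secreted matrix protein abundant in parietal endoderm and also in fibroblasts, was at 249, 451 and 329 FPKM in untreated replicates 1, 2 and 3. In tamoxifen replicates 1, 2 and 3 it was at 296, 362 and 260 FPKM. The groups overlapped, and the differences within numbers did not share a sign, with log2 values of 0.25, -0.32 and -0.34. The log2 fold change was -0.14 (SE 0.305, limma adjusted p = 0.999, and adjusted p = 0.522 with the block). For Sparc the deposited FPKM lay above the upper bound of its own deposited interval in all 6 samples, which was the case for no other member.

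**Figure D3:**
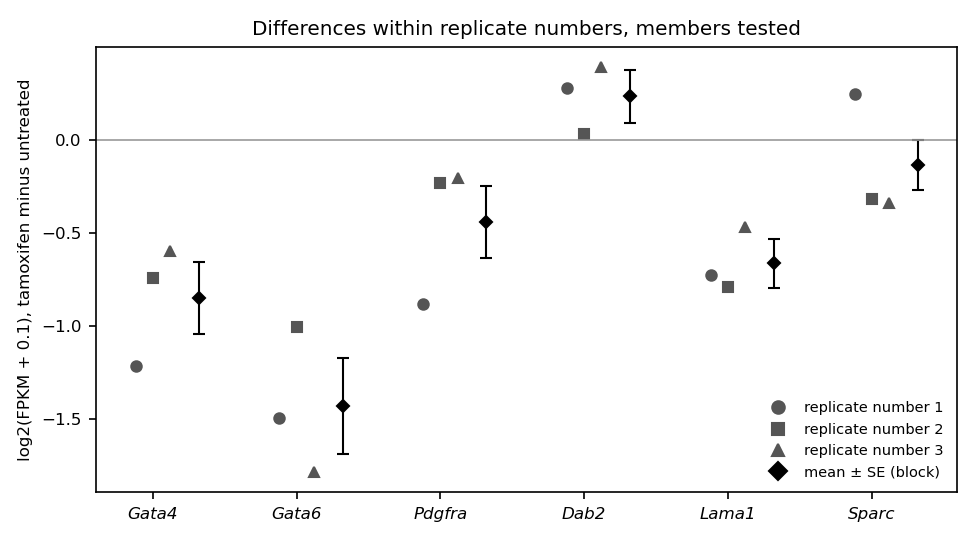
Log2 difference between the tamoxifen and the untreated sample of each replicate number, for the 6 members that were tested. Gray symbols are the 3 replicate numbers, and black diamonds give their mean with the SE of the fit with the block. All 3 differences lie below 0 for Gata4, Gata6, Pdgfra and Lama1 and above 0 for Dab2, and Sparc has 1 above and 2 below.

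Among the 6 members tested, limma without the block called 0, with 2 at an unadjusted p under 0.05 (Gata6 and Gata4), beside 623 of all 12997 genes. The fit with the block called 3 lower (Gata4, Gata6 and Lama1) and 0 higher, where 6.06% and 4.33% of all genes tested were called lower and higher. Gata6 had entered the test through the untreated samples, so this count is no support for a direction of the members. The median log2 fold change of the 6 was -0.55, and that of all genes tested was -0.02. For the same reason this median is a description only. Replicate numbers differed for 4 of the 6 (Pdgfra, Dab2, Lama1 and Sparc), where 62.8% of all genes did. Gata6 and Gata4 had adjusted p = 0.0532 and 0.171 in that F-test.

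The list of basement membrane genes, the matrix that Lama1 and Sparc belong to, held 10 genes and all were tested. With the block 6 were called lower and 0 higher, beside 6.06% and 4.33% of all genes tested. Between replicate numbers 10 of 10 differed, beside 62.8% of all genes tested, and the median log2 fold change was -0.51. Without the block limma called 0 of them, with 1 at an unadjusted p under 0.05, beside 623 of all 12997 genes. Col4a1, a chain of type IV collagen, was at 19.8, 57.6 and 39.6 FPKM in untreated replicates 1, 2 and 3 and at 10.7, 28.5 and 19.5 FPKM in tamoxifen replicates 1, 2 and 3 (log2 fold change -0.97, adjusted p = 0.00334 with the block). Within numbers the log2 difference of Col4a1 was -0.89, -1.01 and -1.02, while tamoxifen replicate 2 lay above untreated replicate 1. Col4a2, its partner chain, had a log2 fold change of -0.91 (adjusted p = 0.00453). Plod2, a lysyl hydroxylase that modifies collagen, had -0.86 (adjusted p = 0.00393), and Nid1, which links laminin to type IV collagen, had -0.56 (adjusted p = 0.0223). Lamb1, the beta-1 laminin chain, had -0.52 (adjusted p = 0.0270), and Hspg2, the gene of perlecan, had -0.50 (adjusted p = 0.0443). Lamc1, the gamma-1 chain that is shared by most laminins, was not called (log2 fold change -0.04, adjusted p = 0.884), nor was Serpinh1, a collagen chaperone (-0.12, adjusted p = 0.525). The log2 fold change was below 0 for 9 of the 10 genes and above 0 for Nid2 (0.16, adjusted p = 0.358), which was not called. Under scaling to TPM 3 of the 10 were called lower (Col4a1, Col4a2 and Plod2), beside 336 of all 12997 genes tested. Without the samples numbered 2 only Col4a1 was, beside 43 of all 12997 genes. Fibroblasts also express most of these genes. Over the same samples genes of the feeder list had log2 fold changes from -0.85 (Lox) and -0.84 (Twist1) to 0.05 (Col1a1) and 0.65 (Postn), and the part of fibroblast RNA in the basement membrane values was not tested.

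Calls among other genes of the extraembryonic endoderm went in both directions. Of 24 listed, 23 had a row and 16 were tested. With the block 2 were called lower (Lrp2 and Cited1) and 1 higher (Krt19), beside 6.06% and 4.33% of all genes tested. Without the samples numbered 2 there were 0 in either direction, beside 43 lower and 36 higher of all 12997 genes. Without the block 0 were called (1 gene at an unadjusted p under 0.05, beside 623 of all 12997 genes). The median log2 fold change was -0.07, which turned to 0.02 under scaling to TPM with Krt19 as the gene called. Under that scaling 430 of all 12997 genes were called higher and 336 lower. Lrp2, the endocytic receptor megalin, was at 6.59, 10.6 and 8.41 FPKM in untreated replicates 1, 2 and 3 and at 2.85, 7.28 and 6.49 FPKM in tamoxifen replicates 1, 2 and 3 (log2 fold change -0.70, adjusted p = 0.0411 with the block). Within each number the tamoxifen sample was the lower one. Cited1, a transcriptional coregulator, had -0.63 (adjusted p = 0.0252). Its tamoxifen samples all lay below its untreated ones, as for 5.40% of all genes tested. Krt19, a keratin of simple epithelia, had 0.61 (adjusted p = 0.0331), while Krt8 and Krt18 had 0.00 and 0.01 and were not called. Apoe, the most abundant gene of the list, lay between 360 and 963 FPKM and was not called (-0.42, adjusted p = 0.110). The untested genes included Foxa2, Cubn, Apoa1, Apob, Ihh and Ttr, each under 0.5 FPKM in all 6 samples.

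Inputs to the lineage were described through 22 genes of FGF-ERK and PDGF signaling, all of them tested. With the block 6 were called lower and 1 higher, beside 6.06% and 4.33% of all genes tested. Without the block 0 were called (2 genes at an unadjusted p under 0.05, beside 623 of all 12997 genes). Between replicate numbers 17 differed, beside 62.8% of all genes tested, and the median log2 fold change was -0.26. The 6 called lower were the ligands Pdgfa (-0.47, adjusted p = 0.0474) and Pdgfc (-0.74, adjusted p = 0.0278), and 4 genes known to be induced by ERK signaling or to act in its feedback. Of the latter, Spry4 was at 17.0, 22.1 and 37.6 FPKM in untreated replicates 1, 2 and 3 and at 6.46, 12.8 and 16.9 FPKM in tamoxifen replicates 1, 2 and 3 (-1.11, adjusted p = 0.00462). All tamoxifen samples of Spry4 lay below all untreated samples, the nearest of them by a narrow margin, as for 5.40% of all genes tested. Etv4, an ETS transcription factor, had -0.83 (adjusted p = 0.00621), Spred1 had -0.69 (adjusted p = 0.0135) and Dusp6, an ERK phosphatase, had -0.46 (adjusted p = 0.0373). Mapk3, the gene of ERK1, had 0.50 (adjusted p = 0.0211). Etv5, another ETS factor, had 0.14 (adjusted p = 0.441) and was not called. Fgf4, the main FGF ligand of ESCs, lay between 51.5 and 86.7 FPKM (0.14, adjusted p = 0.445), and Fgfr1 had -0.44 (adjusted p = 0.0589). Under scaling to TPM 2 of the 22 were called lower (Etv4 and Spry4) and 1 higher (Mapk3), beside 336 and 430 of all 12997 genes. Without the samples numbered 2 only Spry4 was called, beside 43 lower and 36 higher of all 12997 genes.

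**Figure D4:**
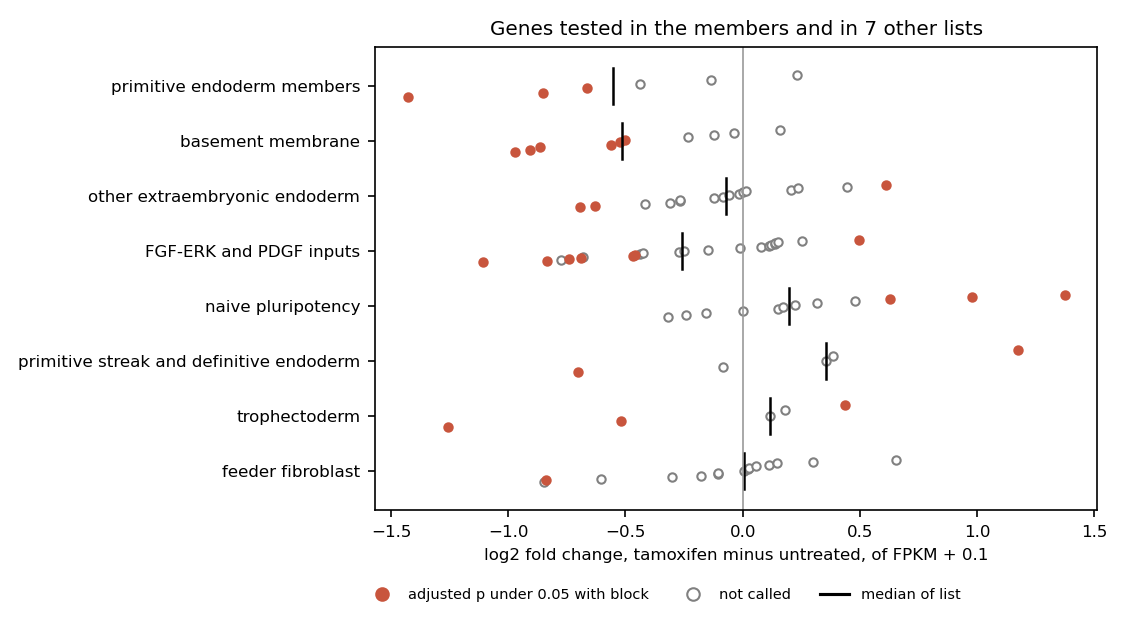
Log2 fold change, tamoxifen minus untreated, of each gene tested in the members and in 7 other lists. Filled red points passed an adjusted p of 0.05 in the fit with the block, open points did not, and black bars are medians. The members have 3 filled points below 0 and no filled point above it, and Gata6 passed the filter through the untreated samples alone. The basement membrane list has 6 filled points below 0 and no filled point above it. The naive pluripotency list has 3 filled points above 0 and no filled point below it. Of all genes tested, 6.06% were called lower and 4.33% higher in this fit.

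The genes whose pattern was most like that of the members were found by Pearson's r over the 6 samples with the mean of the standardized log2 values of the 6 tested members, among genes of at least 2 FPKM on average. That mean was highest in untreated replicates 3 and 2 (0.66 and 0.62 SD) and lowest in tamoxifen replicate 1 (-0.88 SD). The 10 highest were Hs6st2 (r = 0.994), Slc25a44, Zfp12, Cd109, Cxcl12, A930024E05Rik, Snord22, Ctgf, Cbfb and Plxdc2 (r = 0.977). They were picked from a whole table for this value over 6 points that share libraries and depth, so the coefficients are a description. Hs6st2, a heparan sulfate sulfotransferase, was at 4.50, 10.2 and 9.82 FPKM in untreated replicates 1, 2 and 3 and at 2.20, 4.54 and 5.72 FPKM in tamoxifen replicates 1, 2 and 3.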

How the data were processed

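PolyA+ RNA had been sequenced as directional paired-end libraries. Per the study's methods, the authors used TopHat2 (0.5) for alignment to mm9 and Cuffdiff (2.1.1) with refGene models for the values. The deposited tables hold FPKM for 23874 rows per sample, with an interval and a status. Rows were matched by name and summed per gene name, and 6 gene names with a failed estimate were left out. Groups came from the sample titles. The ChIP-seq samples of the series were not analysed here.

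The difference between groups was estimated on log2(FPKM + 0.1) by limma 3.58.1, run in R 4.3.3 (eBayes with a mean-variance trend, no covariate), after a filter of 0.5 FPKM in at least 3 of 6 samples. Another fit took the replicate number as a block, because the deviations of same-numbered samples from their group means correlated across genes (r = 0.544, 0.605 and 0.506 for numbers 1, 2 and 3). Both fits were run on simulated data with known changes, the same noise for every gene and replicate effects built in. That setting is simpler than these data, so it checks the code and not the error rates here. The limma p-values set a difference against the spread between these samples within groups, moderated by eBayes with the trend over all genes. With the block, differences between replicate numbers are taken out of that spread. The permutation p-value compares the difference with those of every other split of the same samples. Fragment numbers were read from steps in the FPKM as whole numbers within 0.07, up to 120. The total read number of each sample is not given in the sources used here. The values of 0 for Afp carried a status of OK, and a 0 does not show that RNA was absent. Promoters came from RefSeq tables (GRCm38.p6), another build than that of the FPKM. Python 3.11.15, pandas 2.3.3 and numpy 2.4.6 were used.

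The 10 members and the other lists (basement membrane, other extraembryonic endoderm, FGF-ERK and PDGF inputs, naive pluripotency, primitive streak and definitive endoderm, feeder fibroblast, trophectoderm) were chosen with earlier results of these data known. Named were all members, Kdm2b, per list up to 4 genes with the highest mean FPKM and those past the threshold, and the 10 most similar genes. Others were chosen after their values were seen. Alternatives were pseudocounts of 1 and 0.01, TPM scaling, quantile normalization, the highest row per name, eBayes without a trend, no filter, a minimum of 1 FPKM throughout, the replicate block and leaving out samples. Beyond the planned ones, these were also run with the block, after the data had been seen.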

Additional observations from a re-analysis of the deposited data

How the results depend on the processing

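Without the block 0 members were called under every alternative run. The called genes, 3 higher and 1 lower, became 0 lower with a pseudocount of 1, 1 higher and 0 lower with no filter, and 0 and 0 at 1 FPKM or more in all samples. Leaving out single samples gave 2 to 5 higher and 0 to 7 lower. Over the same omissions the log2 fold change of Sparc ranged from -0.346 to 0.0814 (above 0 without untreated replicate 2), that of Pdgfra from -1.003 to 0.346 (above 0 without tamoxifen replicate 1) and that of Dab2 from -0.0357 to 0.424 (below 0 without tamoxifen replicate 3). With the replicate block 563 genes were called higher and 787 lower, with 3 members lower, and with the block and quantile normalization 558 and 586, with 2 members lower. The block changed no call of another member. With the block, TPM scaling gave 336 lower and 1 member lower (Gata6), no filter gave 0 higher, 0 lower and 0 members, eBayes without a trend gave 328 higher, and a filter of 1 FPKM in all samples left 1 member lower (Lama1; Gata4 and Gata6 were not tested). Leaving out one replicate number with the block gave 36 to 744 higher, 43 to 1011 lower and 0 to 3 members lower. Without the samples numbered 2 there were 36 higher, 43 lower and 0 members, and without those numbered 3 there were 359 higher and 478 lower. The cause was not tested. Sox17, Sox7, Hnf4a and Afp rest on at most 30 fragments per sample, and read counts for a count model were not at hand.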

Other observations

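Genes of neighboring lineages showed changes in both directions with the replicate number as a block. In that fit 4.33% of all genes tested were called higher and 6.06% lower. Of the 12 naive pluripotency genes 3 were called higher in tamoxifen samples and 0 lower, with a median log2 fold change of 0.20. Dppa3, expressed in naive ESCs and germ cells, was at 45.9, 21.6 and 21.8 FPKM in untreated replicates 1, 2 and 3 and at 132, 53.6 and 53.4 FPKM in tamoxifen replicates 1, 2 and 3 (log2 fold change 1.37, limma adjusted p = 0.00180). All tamoxifen samples of Dppa3 lay above all untreated samples, as did those of Nanog, Klf2 and Prdm14. For Tfcp2l1 they all lay below. The share of all genes with such a gap was counted only for the lower direction (5.40%). Prdm14, a repressor of FGF receptor genes in naive cells, had 0.98 (adjusted p = 0.0105) and Klf2 had 0.63 (adjusted p = 0.0318). Nanog (0.48, adjusted p = 0.0792), Sox2 (0.32, adjusted p = 0.128) and Esrrb (0.15, adjusted p = 0.483) were not called. Of the 12 genes 4 lay below 0 and were not called either. These were Tbx3 (-0.32, adjusted p = 0.112), Tfcp2l1 (-0.24, adjusted p = 0.191), Klf5 (-0.16, adjusted p = 0.448) and Klf4 (-0.0003, adjusted p = 0.999). Scaling to TPM moved the median over all genes from -0.02 to 0.08 and added Nanog to the genes called. Under quantile normalization Klf2 was not called, and without the samples numbered 2 Dppa3 alone was called. Of all 12997 genes tested, 430 were called higher under scaling to TPM, 558 under quantile normalization and 36 without the samples numbered 2.

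Of 11 genes of the primitive streak and definitive endoderm 5 were tested, with Fgf8 called higher (1.18, adjusted p = 0.02) and Eomes lower (-0.70, adjusted p = 0.0377) and a summed FPKM of 11.7 to 16.3 in untreated and 12.8 to 14.4 in tamoxifen samples. Of 7 trophectoderm genes 6 had a row and 5 were tested. Cdx2, at 1.82, 0.816 and 1.14 FPKM in untreated replicates 1, 2 and 3 and at 0.407, 0.433 and 0.494 FPKM in tamoxifen replicates 1, 2 and 3, was called lower (-1.26, adjusted p = 0.0312). Like Gata6, Cdx2 reached the filter of 0.5 FPKM through the untreated samples alone. Hand1 was also called lower (-0.52, adjusted p = 0.0253) and Tfap2c higher (0.44, adjusted p = 0.0412). Under scaling to TPM Fgf8 and Cdx2 were the genes called in these last 2 lists, beside 430 higher and 336 lower of all 12997 genes. Under quantile normalization Fgf8, Cdx2 and Hand1 were, beside 558 higher and 586 lower. Without the samples numbered 2 there were 0, beside 36 higher and 43 lower. Without the block limma called 0 genes of all 3 lists. An unadjusted p under 0.05 was found for 3 naive pluripotency genes, 1 of the primitive streak and definitive endoderm and 1 of the trophectoderm. Over all 12997 genes tested it was found for 623.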
